A study of Mus musculus with 474 samples.

Results

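Cwc22-high animals were the Diversity Outbred mice of generations 17, 18 and 19 whose skeletal muscle library had a Cwc22 score over 12. The generation was read from a number in each library's title, and the study's methods name some of these numbers as generations but not all of them. The score is the variance-stabilised (VST) expression value that the authors deposited, on a scale close to log2. These generations had 94, 93 and 99 libraries, and generations 21 and 23, which complete the series, had 93 and 95. High libraries numbered 34, from 21 animals labelled female and 13 labelled male, which was 11.9% of generations 17 to 19. The other class held 82, 81 and 89 libraries in generations 17, 18 and 19. The classes were thus chosen by the deposited Cwc22 scores, and Cwc22 is described here and not tested.

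All animals of both classes were Diversity Outbred mice, a stock bred at random from a set of inbred founders, and all were sensitised on a high-fat, high-sugar diet labelled as 45% fat. Each library came from 1 animal, polyadenylated RNA was sequenced, and the labels give sex and a generation number but no genotype, litter or age. Both classes thus share diet, tissue and stock. The classes were set from expression alone, and founder haplotypes, which the study estimated from genotypes, were not analysed here. The tissue label was checked against fast-fibre genes. Myh4, the myosin heavy chain of the fastest fibres, ran from 41022 to 92329 CPM (counts per mega-count of library size) in high libraries and from 43090 to 89987 CPM in the others.

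Cwc22 is a spliceosome protein. It brings Eif4a3, the RNA helicase at the core of the exon junction complex, to the spliceosome, so that spliced messenger RNA is marked for export, translation and surveillance. In the mouse the gene lies in a segment of chromosome 2 known as R2d, which some strains, among them the founder WSB/EiJ, carry in many extra copies at a second place further along that chromosome. That array is known for biased transmission through females. Il1f9, the other marker of these animals, encodes interleukin-36 gamma, a cytokine of the interleukin-1 family best known from skin and other epithelia.

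Cwc22 (ENSMUSG00000027014) lies on the minus strand at chr2:77881159-77946375 of build GRCm38. In the 34 high libraries its level ran from 155.05 to 434.8 CPM with a median of 352.3 CPM. In the other libraries it ran from 8.23 to 25.8 CPM with a median of 11.5 CPM. On the VST scale that set the classes, the lowest high libraries had 13.6 and 13.8 and the highest others had 11.1 and 10.6, so no library lay close to the threshold of 12. Within the high class 7 libraries lay between 155.05 and 281.6 CPM and 27 between 312.3 and 434.8 CPM. The step between these ranges was smaller than that from 237.2 to 281.6 CPM inside the lower range.

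High libraries made up 12.8% of generation 17 (12 of 94), 12.9% of generation 18 (12 of 93) and 10.1% of generation 19 (10 of 99). The 10 high libraries of generation 19 were 8 females and 2 males, whereas generation 17 had 6 and 6 and generation 18 had 7 and 5. In generation 21 a single library of 93 was high, and in generation 23 none of 95 was. The median Cwc22 level of high libraries was 328.99 CPM in generation 17, 371.7 CPM in generation 18 and 350.5 CPM in generation 19. The 7 libraries of the lower range belonged to generations 17 and 18, as the lowest high library of generation 19 had 327.2 CPM.

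**Figure D1:**
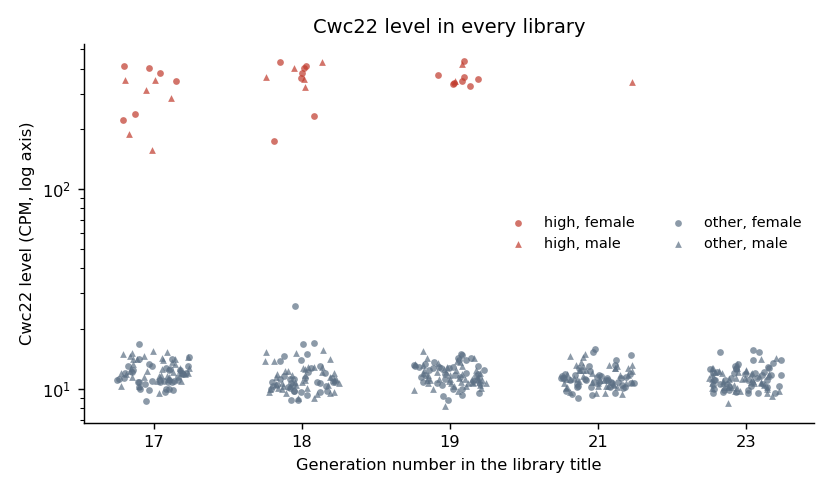
Cwc22 level in every library of the series, in CPM on a log axis scaled over all libraries, by the generation number of the title. Red points are high libraries and grey points the others, circles are females and triangles males, and a gap without any library separates both classes in every generation that has high libraries.

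Library totals, in mega-counts (M), averaged 78.4 ± 12.97 M (SD, n = 34) in high libraries and 81.03 ± 16.9 M (SD) in the others, and the difference of -2.67 M was smaller than either SD (p = 0.374, permutation test, 2-sided). The high libraries were spread over 5 blocks of consecutive library numbers, with 5, 9, 7, 7 and 6 high libraries in them. Levels of sex-linked transcripts went against the sex label in 4 libraries, none of them high.

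Across all genes but Cwc22, 31 of 18220 passed the test between the classes, with sex and generation as covariates (edgeR quasi-likelihood test, Benjamini-Hochberg adjusted p under 0.05). This was 0.17% of the genes tested. Of the 31 genes, 26 rose (0.143%) and 5 fell (0.0274%) in high animals, and 22 differed at least 1.5-fold (0.121%). An unadjusted p under 0.05 was reached by 920 genes (5.05%), and the median log2 difference over all genes was -0.00077. The called genes are described as Il1f9 and a set of mostly noncoding genes on many chromosomes, then neighbours on chromosome 2, then genes whose call rested on single animals, and last the genes that fell elsewhere.

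Il1f9 (ENSMUSG00000044103, chr2:24186476-24193568, plus strand) was the protein-coding gene that rose most. Its level ran from 3.22 to 8.70 CPM in high libraries, with a median of 6.49 CPM. In the other libraries it ran from 0 to 1.54 CPM, with a median of 0.257 CPM. Every high library lay above every other library. The log2 difference was 4.21 ± 0.14 (SE, adjusted p = 4.19e-90, edgeR). Such a full separation of the classes was seen in 3 of the genes tested (0.0165%), namely Il1f9, Gm42764 and Gm42900.

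The separation of Il1f9 was present in each generation and in both sexes. High libraries had medians of 6.04 CPM in generation 17, 6.27 CPM in generation 18 and 6.88 CPM in generation 19, and the other libraries had medians of 0.236, 0.278 and 0.250 CPM. Females of the high class had a median of 6.62 CPM and males 6.44 CPM.

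**Figure D2:**
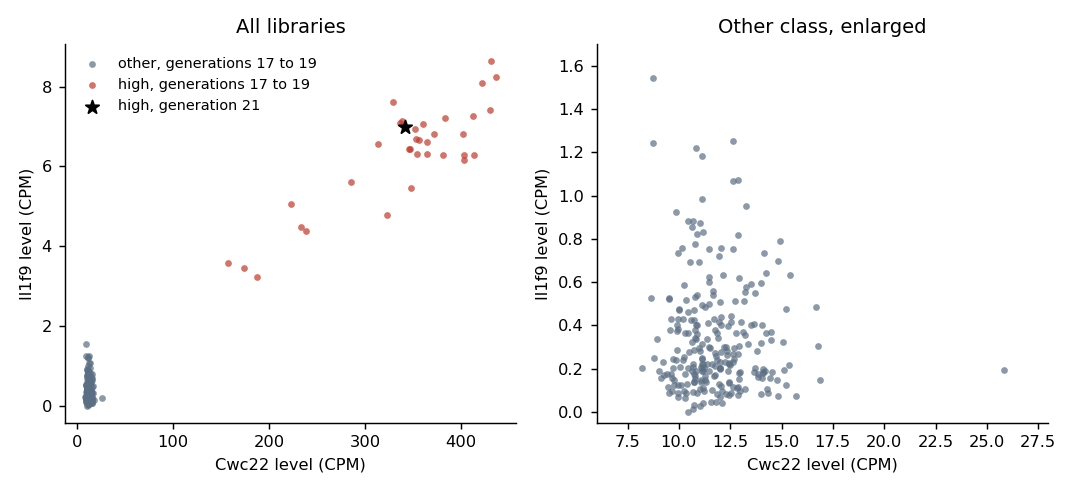
Il1f9 level against Cwc22 level, both in CPM scaled over all libraries, for the libraries of generations 17 to 19 and the high library of generation 21 (star). The right panel enlarges the other class, in which Il1f9 stayed at or under 1.54 CPM whatever the Cwc22 level.

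Of the interleukin-1 family, 4 ligands were tested, and Il1f9 alone passed. At the share of 0.17% over all genes, less than 1 call would fall in this list or in either list that follows. Il33, an alarmin of stromal cells, had a median of 5.32 CPM in high and 5.18 CPM in other libraries (log2 difference -0.02 ± 0.05, SE, adjusted p = 0.988, edgeR). Il1b and Il18, the inflammasome-processed ligands, had differences of -0.18 and -0.13. None of 16 receptors and signalling genes passed the test, and their median difference was 0.03. Il1rl2, the receptor that binds interleukin-36 cytokines, had a median of 1.32 CPM in high and 1.44 CPM in other libraries (0.02 ± 0.11, SE, adjusted p = 0.994, edgeR). None of 8 genes known to be induced by interleukin-36 passed either, and their median was -0.01. The largest difference among them was that of the neutrophil chemokine Cxcl1, -0.66 with an adjusted p of 0.744 (edgeR). The genes next to Il1f9 were not called over the 3 generations together. Hnmt, which inactivates histamine, differed by -0.11 and Psd4 by 0.42, with adjusted p of 0.955 and 0.943 (edgeR). In generation 19 alone Psd4 was called, with a difference of 1.79 and an adjusted p of 0.00085 (edgeR), in a fit that called 1.43% of the genes tested. Over the 3 generations its difference was 0.07 without 2 high libraries, the male animal 94 and a female of generation 19, whose levels of other genes stood apart. Il1rn, the interleukin-1 receptor antagonist, was removed by the filter on low counts and had a median of 0 CPM in high libraries.

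The largest rise on other chromosomes was that of Gm19757 (lincRNA, chr6:105481266-105492668). It ran from 1.25 to 6.26 CPM in high libraries with a median of 3.47 CPM, and from 0 to 1.27 CPM in the others with a median of 0.146 CPM. In 33 of 34 high libraries it lay above every other library (log2 difference 4.29 ± 0.13, SE, adjusted p = 2.14e-94, edgeR). The library outside that count was level with the highest of the others.

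Gm42900 (chr5:107254338-107256504, a gene model of class TEC, which awaits experimental proof in the annotation) ran from 7.71 to 17.4 CPM in high libraries. In the others it ran from 0.647 to 4.13 CPM, so the classes did not overlap. Its medians were 13 and 1.86 CPM (2.72 ± 0.06, SE, adjusted p = 5.66e-121, edgeR). Gm42764 (sense intronic, chr5:30759032-30760477) ran from 5.52 to 15.3 CPM in high and from 0.115 to 3.23 CPM in other libraries, again without overlap. Its medians were 7.91 and 0.881 CPM (3.09 ± 0.12, SE, adjusted p = 6.70e-75, edgeR).

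Gm15983 (antisense, chr16:5254786-5289621) had medians of 3.35 CPM in high and 0.800 CPM in other libraries, a log2 difference of 1.81 ± 0.12 (SE). In 14 high libraries it lay above every other library, and in all 34 it lay above the median of the others. Gm11261 (lincRNA, chr4:78659858-78661588) had medians of 2.99 and 1.09 CPM, and Gm44873 (TEC, chr7:29926978-29930405) had 4.92 and 2.58 CPM. For both, all 34 high libraries lay above the median of the others while the ranges overlapped.

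**Figure D3:**
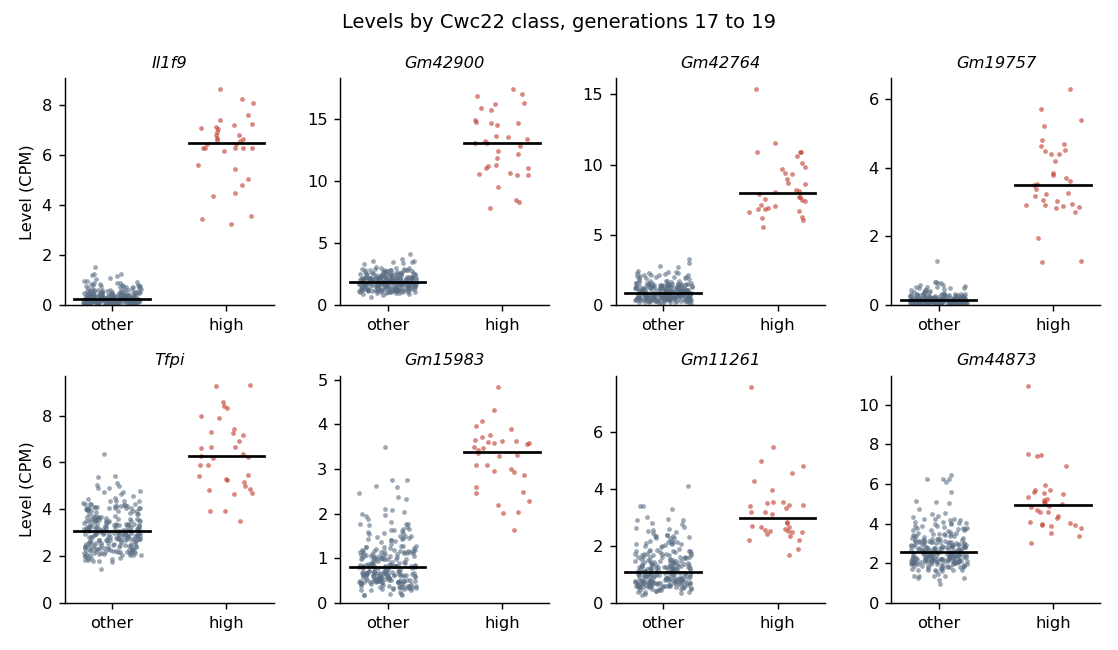
Levels of 8 genes in CPM, scaled over all libraries, in the other and the 34 high libraries of generations 17 to 19. Each point is a library and each line the median of its class, and Il1f9, Gm42900 and Gm42764 show no overlap while Tfpi and Gm44873 do.

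Rises were also found in further genes of this kind. Gm43622 (TEC, chromosome 9) had medians of 6.21 CPM in high and 3.91 CPM in other libraries, and 33 of 34 high libraries lay above the median of the others. Gm14654, a processed pseudogene on chromosome X, had medians of 0.999 and 0.542 CPM. Gm15758 (processed transcript, chromosome 8) had 2.16 and 0.740 CPM. Gm12424, a processed pseudogene on chromosome 4, behaved differently, as its medians were alike (0.277 and 0.274 CPM). In 11 high libraries it lay at 1.68 CPM or more and in the remaining 23 at 0.745 CPM or less, and 10 high libraries exceeded the highest other library (1.77 CPM). Its log2 difference of 1.404 ± 0.23 (SE) thus stood for a part of the high class.

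The annotated transcripts of these genes share sequence. The words of 31 bases in the GENCODE M21 transcripts of the 31 called genes and Cwc22 were compared on both strands, and genes with at least 30 words in common were joined. This joined 12 of the called genes into a family of 9 (Gm42900, Gm42764, Gm11261, Gm44873, Gm11851, Gm43622, Gm14654, Gm12424 and Gm15758) and a family of 3 (Gm19757, Il1f9 and Gm15983). The third family joined Igtp and Irgm2, neighbouring genes of interferon-induced GTPases. The first 2 families covered 9 chromosomes, and 11 of their 12 members were among the 21 genes called outside chromosome 2. Gm44873 and Gm43622 shared most, 500 words on the same strand. Gm42900 and Gm42764 shared words with other members on the opposite strand.

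Runs of identical bases are shown for 3 members of the first family, each being the longest run of the pair named. The runs of Gm42900 and Gm42764 join loci on different chromosomes, while Gm11261 and Gm11851 both lie on chromosome 4. Capitals mark the shared run and lower case the 15 bases on either side, each read 5′ to 3′ along the first gene named.
Gm42900 (chr5:107255382-107255549, minus strand, exon 1), shared with the opposite strand of Gm44873: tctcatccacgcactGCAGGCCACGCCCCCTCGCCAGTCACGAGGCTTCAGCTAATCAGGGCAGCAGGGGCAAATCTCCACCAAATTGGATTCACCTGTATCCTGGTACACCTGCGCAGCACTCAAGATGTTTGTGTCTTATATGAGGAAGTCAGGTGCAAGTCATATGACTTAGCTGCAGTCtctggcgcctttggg
Gm42764 (chr5:30759105-30759219, plus strand, exon 1), shared with the opposite strand of Gm43622: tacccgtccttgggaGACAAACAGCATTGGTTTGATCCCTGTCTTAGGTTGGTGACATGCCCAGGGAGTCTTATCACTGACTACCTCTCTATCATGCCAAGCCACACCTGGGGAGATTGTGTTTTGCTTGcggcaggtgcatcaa
Gm11261 (chr4:78660029-78660139, minus strand, exon 2), shared with the same strand of Gm11851: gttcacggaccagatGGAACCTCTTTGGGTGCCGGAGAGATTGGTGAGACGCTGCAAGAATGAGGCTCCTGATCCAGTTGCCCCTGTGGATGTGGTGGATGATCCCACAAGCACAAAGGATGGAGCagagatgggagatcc
In the second family the stretch in Il1f9 lies in exon 5, after the coding sequence, where it matches the opposite strand of Gm15983 over 150 bases. The first 30 bases of that run, and the first 30 bases of the run of 55 that Gm19757 shares with Il1f9, were as follows.
Il1f9 (chr2:24193285-24193314, plus strand): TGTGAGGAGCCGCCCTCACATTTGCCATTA
Gm19757 (chr6:105492639-105492668, minus strand, exon 1): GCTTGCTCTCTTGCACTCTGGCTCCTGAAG

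**Figure D4:**
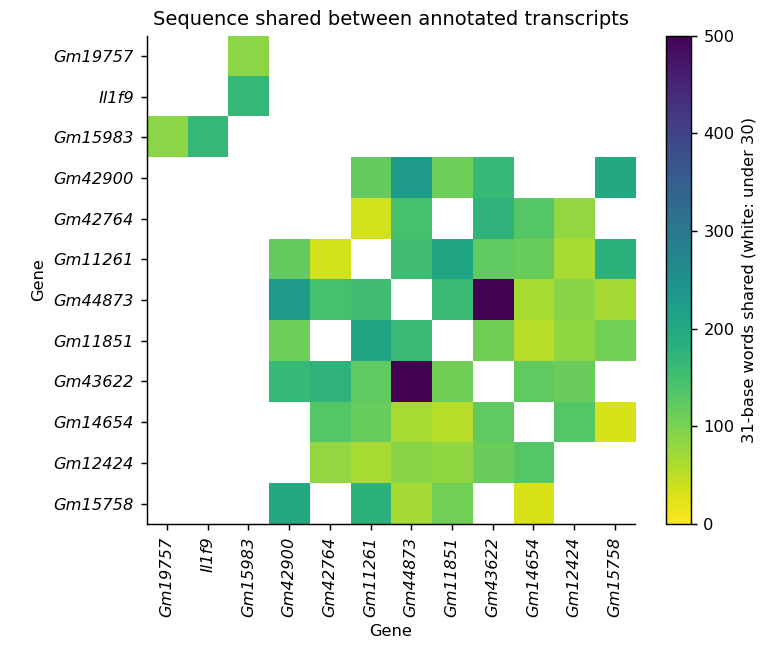
Number of 31-base words shared between the annotated transcripts of 12 called genes, both strands added together, with white for pairs under 30 words. Il1f9, Gm19757 and Gm15983 form one block and the 9 genes from Gm42900 to Gm15758 the other, and the darkest square is the 500 words of Gm44873 and Gm43622.

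The deposited counts are estimates in which a read that fits several genes is divided between them, so a count that is not whole shows that reads were divided. All 12 genes of both families had whole counts in under 5% of the other libraries (a count within 1e-06 of a whole number), against 20.7% of all genes tested. The families were joined by shared sequence, so divided reads in them follow in part from how they were chosen. Il1f9 was whole in none of the high and 0.397% of the other libraries, and Gm42900 and Gm42764 were whole in none. Cwc22 itself was whole in none of the high and 32.9% of the other libraries. Of genes outside the families that share at least 30 words with the first, 24 were tested, 15 had a difference above 0 and the median log2 difference was 0.02. For the second family 19 such genes were tested, 6 were above 0 and the median was -0.03. Over all genes tested 49.6% were above 0. None of these genes could be a called one, because a called gene with that many words in common would have joined the family. No member of either family shared 30 words with the annotated transcripts of Cwc22. Intron sequence and the extra copies that some founders carry were not compared, and the part of divided reads in these rises was not tested.

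Cwc22 shared words with 11 annotated genes. These included 7 copies from Gm13691 to Gm13698 at chr2:83955693-83993045, 6.01 to 6.04 Mb after the Cwc22 start, with up to 1547 words in common. Those copies were not among the genes tested. The one tested gene, Hdx on chromosome X, shared under 0.1 of these and had medians of 0.208 CPM in high and 0.214 CPM in other libraries (log2 difference -0.15 ± 0.18, SE, adjusted p = 0.97, edgeR).

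Within the high class the level of Il1f9 went with that of Cwc22. The Cwc22 values chose the class, so the correlations are given as a description with no test. They were taken on log2 levels, and the libraries were also divided at 300 CPM of Cwc22. That cut was set after the values were seen and does not lie at their widest step. Across the 34 high libraries Pearson's r of Il1f9 was 0.902 and Spearman's rho 0.665, and r was 0.849 without the 2 libraries farthest from the median of Cwc22. It was 0.877 in the 7 libraries of the lower range and 0.504 in the 27 of the upper range, where it went to 0.334 without the 2 farthest. By generation r was 0.935, 0.911 and 0.603 for generations 17, 18 and 19. In the other libraries r was -0.0224.

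The remaining genes examined covered a wide range. For Gm15983 r was 0.793 over the high class, 0.245 in the lower range and 0.471 in the upper. For Gm42900 it was 0.651, 0.951 and 0.293, and for Gm19757 it was 0.712, 0.751 and 0.267. In the lower range the value for Gm19757 went to 0.0614 without the 2 farthest libraries. Over the high class r was 0.499 for Gm42764, 0.380 for Gm11261 and 0.369 for Gm44873, all members of the first family with Gm42900. It was 0.280 for Tfpi, a neighbour on chromosome 2, and -0.0666 for Gm12424.

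Chromosome 2 was the second place where the classes differed. It held 10 of the 31 called genes, or 0.711% of its 1406 tested genes, against 21 of 16814 (0.125%) elsewhere. Within 20 Mb of the Cwc22 start 8 genes were called (3.62% of those tested there), and further off on the chromosome 2 of 1185 (0.169%), which were Il1f9 and Slpi. These counts include Slpi and Prdm11, each not called without 1 animal. They also include Ttc17 and E030042O20Rik, each lost when any of 22 high libraries was left out. Calls were densest from 4 to 8 Mb after the Cwc22 start, with 4 of 28 genes called (14.3%). The share with an unadjusted p under 0.05 (edgeR) was higher from 0 to 4 Mb after it, at 50% of 12 genes against 35.7%. Animals that inherit the same segment share the alleles of all genes on it, and genes of 1 segment are therefore not independent of each other.

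Within 4 Mb, the distance the study calls local, 2 of 42 genes rose. Nckap1 (chr2:80500512-80581380), a subunit of the WAVE complex that builds branched actin, ran from 62 to 100.99 CPM in high libraries and from 45.9 to 127 CPM in the others. Its medians were 86.6 and 70.9 CPM, and 33 of 34 high libraries lay above the median of the others (log2 difference 0.25 ± 0.04, SE, adjusted p = 4.75e-07, edgeR). E030042O20Rik (processed transcript, chr2:75704770-75710024) had medians of 1.47 and 0.876 CPM (0.64 ± 0.16, SE, adjusted p = 0.049, edgeR), and leaving out any of 22 high libraries in turn took its adjusted p over 0.05 (range 0.0236 to 0.117). The nearest neighbours of Cwc22 were not called, with -0.06 for the zinc finger gene Zfp385b and -0.02 for the ubiquitin-conjugating enzyme gene Ube2e3 (adjusted p = 0.971 and 0.974, edgeR). Within 2 Mb of the Cwc22 start no gene was called, but 7 of 19 (36.8%) had an unadjusted p under 0.05 (edgeR). Over all genes that share was 5.05%. The median absolute log2 difference within 2 Mb was 0.11, against 0.046 over all genes.

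Tfpi (chr2:84432855-84476775), the inhibitor of the tissue factor pathway that starts coagulation, was the strongest of these neighbours. It ran from 3.45 to 9.30 CPM in high libraries with a median of 6.23 CPM. In the others it ran from 1.44 to 6.34 CPM with a median of 3.06 CPM. All 34 high libraries lay above the median of the others and 16 above every other library (0.97 ± 0.06, SE, adjusted p = 9.04e-41, edgeR). The gene next to it, Calcrl (chr2:84330626-84425411), the receptor for adrenomedullin and calcitonin gene-related peptide, fell. Its medians were 11.8 CPM in high and 13.5 CPM in other libraries, the ranges overlapped throughout, and 6 of 34 high libraries lay above the median of the others (-0.27 ± 0.06, SE, adjusted p = 0.00365, edgeR).

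Fam171b (chr2:83812636-83883486) had medians of 2.63 and 2.05 CPM (0.31 ± 0.07, SE, adjusted p = 0.00673, edgeR). Ssrp1 (chr2:85037234-85047109), a subunit of the histone chaperone FACT, had medians of 30.6 and 27.8 CPM, and 32 of 34 high libraries lay above the median of the others (0.14 ± 0.02, SE, adjusted p = 6.69e-09, edgeR). Tfpi, Calcrl, Fam171b and Ssrp1 lie on both sides of the Cwc22 copies of the reference annotation. Ttc17 (chr2:94300767-94406689), 16.4 Mb off, had medians of 35.8 and 32.9 CPM (0.10 ± 0.02, SE, adjusted p = 0.0459, edgeR), and its call was lost when any of 22 high libraries was left out (adjusted p up to 0.168). Of the 8 called genes within 20 Mb, 6 had whole counts in every library, namely Tfpi, Calcrl, Fam171b, Ssrp1, Nckap1 and E030042O20Rik, while Ttc17 and Prdm11 did not.

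**Figure D5:**
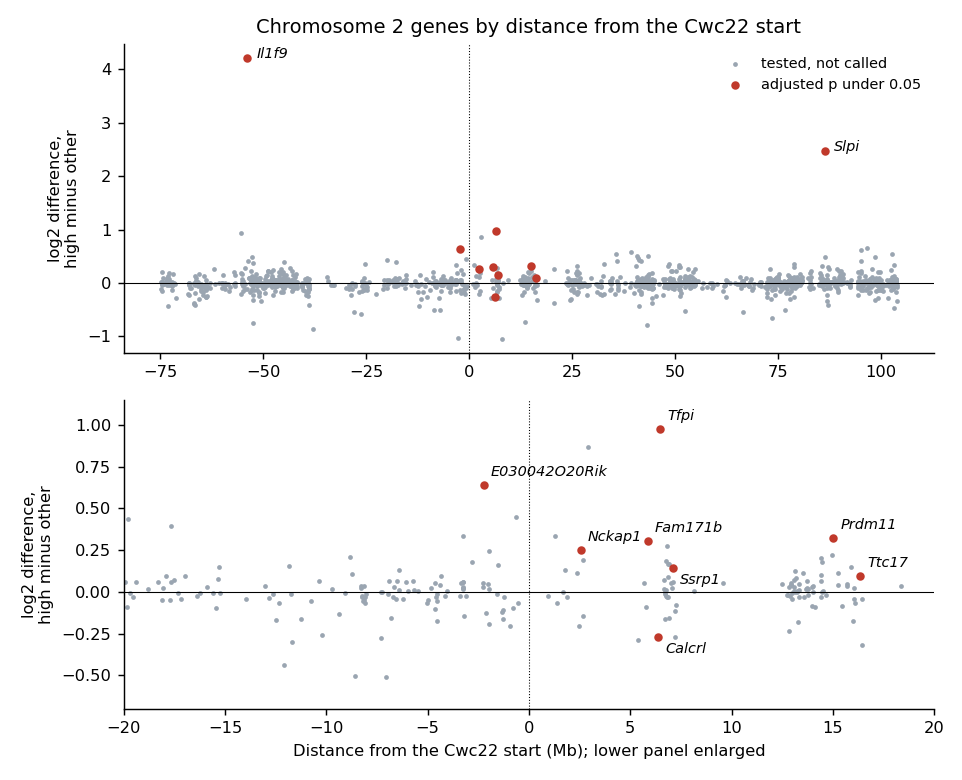
Log2 difference, high minus other, of the 1406 tested genes of chromosome 2 against the distance of their start from the Cwc22 start in Mb. Red points had an adjusted p under 0.05 (edgeR), the lower panel enlarges 20 Mb on either side, and called genes lie from -2.24 to 16.4 Mb there, with Il1f9 and Slpi far outside.

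The remaining calls rested mostly on single animals. In the high male of generation 17 with animal number 94, interferon-induced genes were far above the rest of the class. Igtp, an immunity-related GTPase, was at 200 CPM there, and the next high library had 20.5 CPM. Irgm2 and Irgm1, GTPases of the same family, were at 242.4 and 110.9 CPM. The medians of the classes were alike for these genes, for example 4.995 CPM in high and 5.17 CPM in other libraries for Igtp. Without that animal the log2 difference of Igtp went from 0.80 to -0.03, that of Irgm2 from 0.66 to -0.03 and that of Irgm1 from 0.30 to 0.01, and none was called. Prdm11 on chromosome 2 was at 18.97 CPM in the same library and was not called without it (adjusted p = 0.876, edgeR).

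In 1 high female of generation 19, Ighg2c, the constant region of an immunoglobulin heavy chain, was at 230 CPM and Slpi, a secreted protease inhibitor, at 34.6 CPM. The next high libraries had 4.83 and 1.36 CPM. Without that animal the log2 difference of Ighg2c went from 2.34 to -0.42 and that of Slpi from 2.48 to -0.16. Gm11851, a member of the first family, rested on another female of generation 19 (10.5 CPM) and a male of generation 17 (6.21 CPM), with medians of 0.250 and 0.252 CPM in the classes, and it was not called without the former (adjusted p = 0.805, edgeR). Gm17029 (antisense, chromosome 4) was at 8.62 CPM in 1 male of generation 18 and at most 0.680 CPM in any other high library. Leaving out the male with the interferon-induced genes and the female with Ighg2c together, an alternative chosen after seeing the data, left 20 called genes, of which 19 were among the 31.

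Apart from Calcrl, 4 genes fell. Gm5641, a transcribed pseudogene on chromosome 3, ran from 9.09 to 60.9 CPM in high libraries and from 26.7 to 74.5 CPM in the others, with medians of 45.9 and 50.8 CPM (log2 difference -0.25 ± 0.06, SE, adjusted p = 0.0108, edgeR). In 4 high libraries it was at or under 18.8 CPM, below every other library. Without animal 94, or without 1 of the high males of generation 19, its adjusted p rose over 0.05, to at most 0.0608 (edgeR). The epithelial genes Dmkn (dermokine) and Trim29 had differences of -2.57 and -2.74, yet both were near 0 in either class, with medians of 0.0946 and 0.0989 CPM for Dmkn. These differences rested on a minority of the others, which reached 35.9 CPM for Dmkn and 21.4 CPM for Trim29. Gm28439, an unprocessed pseudogene on chromosome 1, reached 17.7 CPM in high and 2741 CPM in other libraries with medians of 0.308 and 0.00521 CPM, so that its median was the higher in high libraries. Its log2 difference was -4.65 ± 1.16 (SE, adjusted p = 0.0459, edgeR), the call was lost when any of 30 high libraries was left out (adjusted p up to 0.0674), and it was made in 5 of 19 alternative fits. The call of Trim29 was lost when any of 8 high libraries was left out, and that of Dmkn was kept in all 34 cases. Of the alternative fits that tested them, Dmkn was called in 6 of 16 and Trim29 in 7 of 13. Those counts, and that of Gm28439, include a fit at a threshold of 13, which repeats the main fit with the same classes.

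Of the partners of Cwc22, none passed the test, in lists where the share of 0.17% over all genes would give less than 1 call each. Among 11 genes of the exon junction complex the log2 differences ran from -0.07 to 0.02, with a median of -0.01. Eif4a3, the helicase that Cwc22 escorts, had medians of 20.9 CPM in high and 21.6 CPM in other libraries (-0.02 ± 0.02, SE, adjusted p = 0.96, edgeR). Magoh and Rbm8a, the heterodimer that locks that helicase on RNA, differed by -0.05 and -0.02. None of 31 genes of the spliceosome and its Prp19-associated complex passed, with differences from -0.05 to 0.07. None of 14 genes of nonsense-mediated decay passed, with a median of -0.0018, and Upf3a had the largest difference of 0.16 ± 0.06 (SE, adjusted p = 0.943, edgeR). None of 19 transcripts known to be sensitive to that decay passed, and their median difference was 0.02. None of 11 genes of meiosis and chromosome segregation passed, with a median of -0.03.

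Markers of other cell types were examined because a muscle sample holds more than fibres. In bulk tissue, fewer cells of a type and less RNA per cell cannot be told apart. No gene passed in the lists for macrophages, neutrophils, adipocytes, brown adipocytes, endothelial cells, fibro-adipogenic progenitors, satellite cells, Schwann cells, erythroid cells, proliferating cells, slow fibres or fast fibres, and at 0.17% over all genes less than 1 call would fall in each. Of 11 interferon genes, Igtp passed, through animal 94, whose summed level of the list was 348.55 CPM against a median of 22 CPM in high libraries. The 8 lymphocyte genes tested had a median log2 difference of 0.85, 6 of 8 with an unadjusted p under 0.05, against 5.05% of all genes, and none with an adjusted one. Their summed level ran from 2.90 to 275.3 CPM in high and from 2.47 to 448.5 CPM in other libraries, with medians of 52.7 and 62 CPM, and the female with the highest Ighg2c had 220 CPM. The 5 keratinocyte genes, listed because interleukin-36 gamma is a product of that cell type, had a median difference of -0.39. All 5 differences were below 0, 3 of 5 had an unadjusted p under 0.05 and none an adjusted one, beside the falls of the epithelial genes Dmkn and Trim29. Their summed level ran from 11.1 to 29.4 CPM in high and from 9.09 to 270 CPM in other libraries.

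By the interaction terms of the edgeR fit, the difference between the classes depended on sex in 7 genes (0.0384% of those tested) and on generation in 11 (0.0604%), and Il1f9, Gm42900, Gm42764, Gm19757 and Tfpi were not among them. Without animal 94 and the female with the highest Ighg2c both counts went to 2, and by limma on VST scores to 0. Il1f9, Gm42900, Gm19757, Gm42764, Tfpi, Gm15983, Gm11261 and Gm44873 were called in all 19 alternative fits, including each sex alone and each generation alone, and the other 23 called genes were not. When each of the 34 high libraries was left out in turn, the log2 difference of Il1f9 stayed between 4.20 and 4.24 and that of Tfpi between 0.96 and 0.99.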

How the data were processed

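Skeletal muscle RNA was measured in 474 libraries, 1 per animal, and the 286 of generations 17, 18 and 19 were compared. Per the study's methods, mates were pooled as single reads, aligned to the founders' combined transcriptome and assigned to genes by EMASE. The expected counts that the authors deposited therefore count read ends. The deposited scores are VST values of DESeq2, close to log2. Versions are not given in the sources used here. Wave, a covariate of the study, is not in the labels and was not fitted.

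Expected counts were rounded. A filter (filterByExpr, minimum count 10) left 18220 genes of 20612 beside Cwc22. The edgeR 4.0.16 quasi-likelihood test with TMM scaling, sex and generation was the main test, in R 4.3.3 with limma 3.58.1 and DESeq2 1.42.0 for alternatives. P-values were adjusted by Benjamini-Hochberg over all genes. CPM values are TMM-scaled over the 286 libraries, or over all 474 for generation 21. Correlations used log2(CPM + 0.1), and the test of library totals 100000 permutations. Positions are GRCm38 as deposited, and 99.2% equalled GENCODE M21, the source of gene types and transcripts. Python 3.11.15 and scipy 1.17.1 were used elsewhere.

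The members and gene lists were chosen with earlier results of these data known. Of the called genes, 19 were named by a rule (largest differences by place with at least 1 CPM in a class, and called list members) and 11 after their values were seen. The remaining 1 is not reported here and was left out of the gene lists. Nothing states separate litters, so p-values measure the spread between animals, which may be related.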

Additional observations from a re-analysis of the deposited data

Results flagged for a closer look

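The difference between the classes depended on sex or generation in a few of the called genes, by the interaction terms of the edgeR quasi-likelihood fit. With sex, 7 of 18220 genes passed (0.0384%), and among them were the called genes Gm17029 (adjusted p = 6.63e-06), Igtp (0.000336), Irgm1 (0.0115) and Irgm2 (0.0447). Each had its highest level in a single high male. Igtp, for example, had medians of 5.08 CPM in high and 5.38 CPM in other males and of 4.91 CPM in both classes of females.

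With generation, 11 of 18220 genes passed (0.0604%). Among them were the called genes Slpi (adjusted p = 1.69e-07, edgeR), Igtp (4.74e-05), Ighg2c (0.000105), Gm17029 (0.000237), Gm11851 (0.000767), Irgm2 (0.00796) and Irgm1 (0.00796). Without the male holding the high interferon-induced genes (animal 94) and the female holding the high Ighg2c, the edgeR adjusted p was 1 for Igtp, Irgm1 and Irgm2 by sex, while Gm17029 still passed (7.58e-06). By generation it was 0.916 for Igtp and 0.52 for Ighg2c, while Gm17029 (0.00169) and Gm11851 (0.00166) still passed. By limma on the VST scores none of these passed.

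Generation 21, which the comparison did not use, held 1 high library, a male with a Cwc22 score of 14.75 and 341.9 CPM. The rest of the libraries of generations 21 and 23 reached 15.9 CPM. Il1f9 was at 6.99 CPM in that library and at most 1.33 CPM in the others. Gm42900 was at 11.9 CPM against at most 3.35 CPM, Gm42764 at 7.23 CPM against at most 2.97 CPM, and Gm19757 at 4.82 CPM against at most 1.22 CPM. A single library allows no test. Of the 26 genes that rose in generations 17 to 19, 5 were higher in it than in all the rest, the fifth being Gm15983 (3.52 against at most 2.41 CPM), and 18 were above their median. Over all genes tested, 0.412% were higher in that library than in all the rest and 50.4% were above their median. Tfpi was at 5.75 CPM, with 1 other library at or above it. Gm5641, which fell, was at 17.4 CPM, below all the rest, as were 0.263% of the genes tested.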

How the results depend on the processing

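Of the genes tested, 0.170% were called in the main fit, which the threshold of 13 repeats with the same classes. The share was 0.154% with total counts, 0.155% without the filter, 0.188% at a minimum count of 50, 0.148% and 0.170% at thresholds of 11 and 13, 0.148% with Cwc22 as a continuous covariate, 0.148% with blocks of consecutive library numbers, 0.198% without covariates, 0.128% in males, 0.132% in generation 17, 0.164% without libraries against their sex label and 0.137% by DESeq2. It was 0.110% with cell-type scores, 0.0865% in females, 0.0661% in generation 18, 1.43% in generation 19 and 0.104% by limma on VST scores. In alternatives chosen after seeing the data it was 0.110% without the 2 animals named above (animal 94 and the female with high Ighg2c) and 0.0933% by limma on rank-normal scores. The calls of generation 19 shared 13 genes with the 31. Leaving out each high library gave 0.115% to 0.181%. Called members of the gene lists went from 2 to 1 with cell-type scores, in females, in generation 18 and by both limma fits, and to 10 in generation 19. Calls near Cwc22 went from 2 within 4 Mb to 0 within 2 Mb and 6 within 10 Mb. Without those 2 animals the sex interaction went from 7 genes to 2 and that of generation from 11 to 2, and by limma on VST scores both went to 0. The difference in totals was -0.0382 on log2 and -0.893 M by medians, neither past the threshold.

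Differences turned sign in generation 18 for Gm11851 (-0.308), Igtp (-0.197), Irgm2 (-0.117), Ighg2c (-3.42), Irgm1 (-0.0297), Ube2e3 (0.0494), Hnmt (0.0307) and Psd4 (-0.748). They turned without those 2 animals for Igtp (-0.0211), Irgm2 (-0.0250) and Ighg2c (-0.417), in females for Igtp (-0.0395), in generation 19 for Zfp385b (0.0640), by DESeq2 for Ighg2c (-0.334), and on rank-normal scores for Gm11851 (-0.150), Ighg2c (-0.0167), Gm28439 (0.0131) and Psd4 (-0.111). The cause was not tested. The filter on low counts left genes such as Il1rn, with a median of 0 CPM in high libraries, out of the test. No paired analysis was possible because animal numbers differ between all libraries.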
